A study of Mus musculus with 3 samples.

Results

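Krüppel-like factors (KLFs) are DNA-binding proteins with zinc fingers, and 9 of their genes, *Klf2*, *Klf3*, *Klf4*, *Klf5*, *Klf6*, *Klf7*, *Klf9*, *Klf10* and *Klf13*, were followed through the cell types of the P14 mouse lung. They were taken by gene symbol from the 28692 genes in the deposited tables, and each symbol matched a single gene. Whole lungs of 3 wild-type C57BL/6 mice (numbers 2, 3 and 4), kept in room air (RA) from day of life 1 to 14, were dissociated, and 16000 fresh cells of each mouse were loaded for 1 droplet library (10x Genomics 3′ chemistry, v3). There was no treated group, so the comparisons are between cell types, with the mouse as the replicate. The values are counts of unique molecular identifiers (UMIs), each of which stands for 1 captured mRNA molecule.

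KLFs bind GC-rich and CACCC-type sequences through a shared zinc finger region, and they differ in the part of the protein that activates or represses genes. KLF2 and KLF4 are known for keeping endothelial cells (ECs) quiescent and anti-thrombotic under laminar flow, where a MEK5 and ERK5 kinase cascade acts through MEF2 factors on their genes, and KLF2 also governs the exit of lymphocytes from lymphoid organs. KLF5 is known for its part in the airway and alveolar epithelium, KLF9 as a gene induced by glucocorticoids, KLF6 and KLF10 as genes induced early after injury or TGF-β, and KLF3 as a repressor that works with CtBP corepressors.

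On mouse build GRCm38 with the GENCODE M21 annotation, *Klf2* lies at chr8:72319033-72321656 on the plus strand and *Klf4* at chr4:55527143-55532466 on the minus strand. *Klf3* lies at chr5:64803388-64832901, *Klf5* at chr14:99298691-99315036, *Klf6* at chr13:5861482-5870394 and *Klf9* at chr19:23141226-23168134, all on the plus strand. *Klf7* at chr1:64029447-64122282, *Klf10* at chr15:38291463-38300706 and *Klf13* at chr7:63886351-63938915 are on the minus strand. *Klf7* overlaps the opposite-strand genes Gm26649 and Gm13748, and *Klf13* overlaps E030018B13Rik. These genes were counted too, and how reads were assigned there is not given in the sources used here.

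RefSeq promoter windows of 300 bases (250 before the start and 50 after it, build GRCm38.p6) matched 7 of the 9 genes. *Klf2* and *Klf4* are shown because both are placed downstream of MEF2 in ECs. The bases before the start are given 5′ to 3′, for *Klf2* from chr8:72318812-72319061 on the plus strand and for *Klf4* from chr4:55532476-55532725 on the minus strand. Capitals mark a match to the MEF2-type motif, CTA and TAG separated by any 4 bases.
Klf2: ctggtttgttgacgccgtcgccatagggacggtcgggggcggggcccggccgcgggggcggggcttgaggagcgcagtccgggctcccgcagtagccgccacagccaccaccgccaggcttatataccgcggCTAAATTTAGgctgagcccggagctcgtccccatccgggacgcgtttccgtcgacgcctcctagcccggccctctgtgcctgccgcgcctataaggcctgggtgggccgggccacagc
Klf4: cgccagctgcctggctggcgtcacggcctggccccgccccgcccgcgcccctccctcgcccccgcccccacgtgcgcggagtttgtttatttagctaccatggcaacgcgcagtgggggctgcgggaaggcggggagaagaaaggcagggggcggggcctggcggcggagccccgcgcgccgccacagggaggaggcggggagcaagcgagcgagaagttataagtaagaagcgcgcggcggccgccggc

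Among the 7 windows, *Klf2* alone held the MEF2-type motif, at bases -118 to -109 from the start, and the motif reads the same on both strands. It was found in 1211 of 32851 promoter windows (3.69%). The SP1-type box GGGCGG, searched on both strands, was in 35.7% of all windows and in 6 of the 7, with none in *Klf9*, 2 matches in *Klf2*, 6 in *Klf3* and 4 in *Klf4*. The E-box CACGTG (7.15% of windows) was in *Klf4* and *Klf6*. TATAAA (13.6%), CCACACCC (3.56%) and the CArG box (1.63%) were in none of the 7. The windows held 58.3% to 76.7% G and C, and the median of all windows was 52.7%. A match is a description of letters and not of binding.

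The deposited tables held 9644 cells and 71413428 UMIs, with 22476491 to 25192427 UMIs a mouse, of which 7642 cells were kept (200 genes or more, mitochondrial share up to 20%). Pairs of libraries shared 2 to 5 barcodes, none with identical counts. Clusters were made with the 9 genes left out and named from marker genes, so each name below stands for cells with the markers of that type and is written -like at its first use. There were 962 ECs, 1308 epithelial, 1536 stromal and 3025 immune cells, in 21 types, and 811 cells stayed unnamed. No cluster was named as ciliated cells, mesothelial cells, monocytes or plasmacytoid dendritic cells, and such cells could be among the unnamed ones. Median depth ran from 3861.0 UMIs a cell in immune cells to 16128.5 in epithelial cells. Levels are given as CPM, UMIs of the gene per 1000000 UMIs summed over the cells of a type in 1 mouse, as mean ± SD over 3 mice, and they are not compared between genes.

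The 4 classes differed in which KLFs they held. *Klf2*, *Klf4* and *Klf7* were highest in ECs, *Klf5* in epithelial cells, *Klf9* in stromal cells and, with overlap, *Klf6* in immune cells. *Klf3*, *Klf10* and *Klf13* were also highest in ECs, but over a narrower range. By type the order for *Klf10* was another, with overlap between neighbours. Its means were 98.4 CPM in neutrophil-like, 84.0 in basophil or mast cell-like (2 mice), 77.0 in alveolar and 62.1 in interstitial macrophage-like cells. The highest EC type, venous EC-like cells, was at 61.6, and B cell-like cells, 1784 of the 3025 immune cells, were lowest at 7.34. Each class was tested against the mean of the other 3 with edgeR's quasi-likelihood test, and a gene is called at an adjusted p below 0.05. Most genes differ between classes, so the share of all 14209 genes called is given beside each count.

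**Figure D1:**
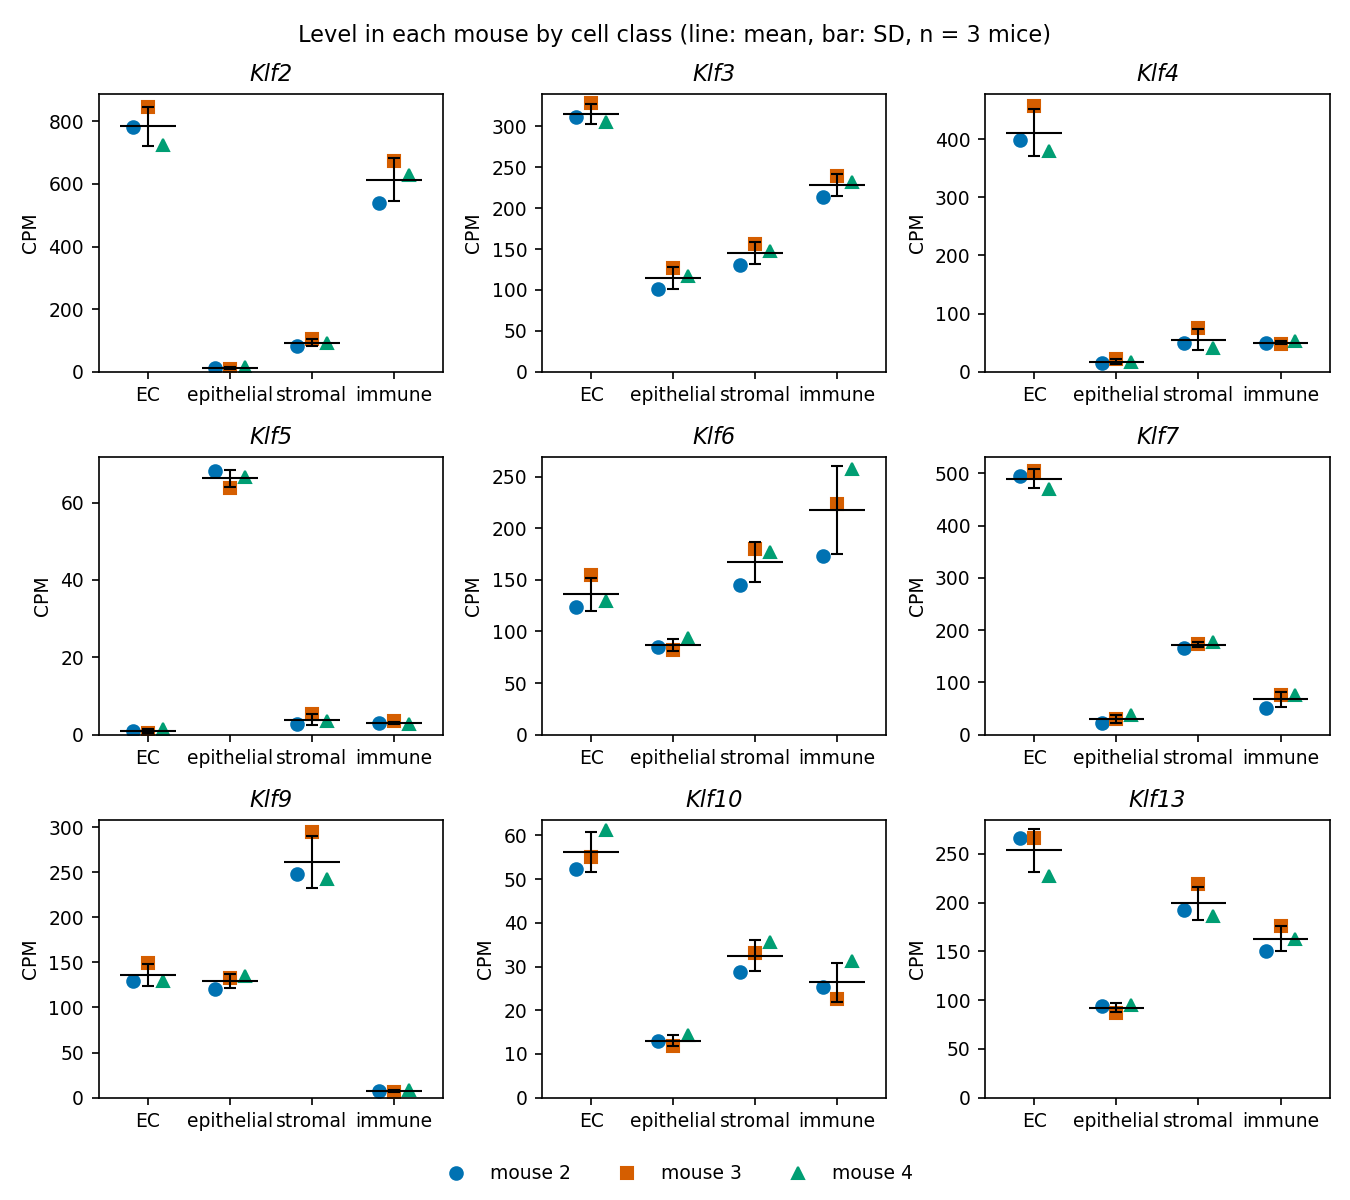
Level of each KLF gene (CPM, linear axis from 0) in the EC, epithelial, stromal and immune cells of each mouse, with 1 symbol per mouse, a line at the mean and a bar for the SD (n = 3 mice). *Klf2* and *Klf4* are lowest in epithelial cells and highest in ECs in every mouse, *Klf5* is at 63.8 to 68.2 CPM in epithelial cells and below 6 CPM elsewhere, and *Klf9* is near 0 in immune cells.

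In ECs all 9 genes were called, 7 higher and 2 lower. Over all genes 59.6% were called, 29.6% as higher. *Klf2* was at 781, 847 and 725 CPM in the ECs of mice 2, 3 and 4 (784 ± 61.4), at 540, 675 and 627 in immune cells, at 82.0, 106 and 91.5 in stromal cells and at 11.1, 8.13 and 16.0 in epithelial cells. No mouse overlapped between neighbours in this order. Its log2 fold change in ECs was 2.87 ± 0.12 (SE, adjusted p = 1.3e-11, edgeR).

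*Klf4* was at 398, 456 and 379 CPM in ECs, 55.2 ± 18.1 in stromal, 50.1 ± 3.09 in immune and 17.3 ± 4.00 in epithelial cells. Stromal and immune cells overlapped, and ECs stood above all of them by 3.23 ± 0.13 on the log2 scale (adjusted p = 8.4e-12, edgeR). *Klf7*, a factor best known from neurons, followed the same pattern with 496, 504 and 470 CPM in ECs, 172 ± 5.21 in stromal, 67.5 ± 13.8 in immune and 30.2 ± 7.01 in epithelial cells, without overlap between neighbours. The ECs held 61.3% ± 4.79 of all *Klf4* UMIs and 46.8% ± 4.09 of all *Klf7* UMIs of a mouse. For *Klf2* the ECs held 39.5% ± 9.24 and the immune cells 43.7% ± 12.99.

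*Klf5* was lower in ECs by -3.55 ± 0.32 on the log2 scale (adjusted p = 1.7e-07, edgeR). The differences of the remaining genes were smaller. *Klf10*, the TGF-β-inducible early gene, was higher in ECs by 1.05 ± 0.10 on the log2 scale, *Klf9* by 0.83 ± 0.09, *Klf3* by 0.73 ± 0.06 and *Klf13*, a broadly expressed factor, by 0.53 ± 0.07. For *Klf9* the ECs were nonetheless below stromal cells in every mouse. *Klf6* was lower by -0.40 ± 0.11 (adjusted p = 0.0046, edgeR). That call was lost without TMM scaling (-0.12, adjusted p = 0.36), without mouse 4 (-0.30, adjusted p = 0.071) and with the class taken from each cell's own UMIs (-0.08, adjusted p = 0.66). Without TMM the median of all genes in this contrast moved from -0.07 to 0.22 and the share of calls that were higher from 49.6% to 68.8%.

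In epithelial cells all 9 genes were called again, 2 higher and 7 lower, where 71.0% of all genes were called (34.5% higher). *Klf5*, which takes part in the growth and differentiation of airway and alveolar epithelium, was at 68.2, 63.8 and 66.7 CPM there, against 3.91 ± 1.40 in stromal, 3.03 ± 0.367 in immune cells and 0.878 ± 0.488 in ECs. It was higher by 5.24 ± 0.13 on the log2 scale (adjusted p = 4.5e-14, edgeR), and the epithelium held 88.5% ± 5.75 of its UMIs. *Klf9* was higher by 1.38 ± 0.08 than the mean of the other classes, of which immune cells were lowest. By level, epithelial cells were below stromal cells for *Klf9* and overlapped with ECs. *Klf2* was lower by -4.52 ± 0.18, the largest of the 7 negative differences, followed by *Klf4* (-2.26 ± 0.17) and *Klf7* (-2.20 ± 0.12). Without TMM the median of all genes moved by -0.36 here and 31.6% rather than 48.6% of calls were higher, and the members stayed at 2 higher and 7 lower.

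In stromal cells 7 of the 9 genes were called, 3 higher and 4 lower, beside 66.7% of all genes (36.1% higher). *Klf9* was at 248, 294 and 242 CPM there, 136 ± 11.8 in ECs, 129 ± 7.91 in epithelial and 7.44 ± 1.33 in immune cells, and was higher by 2.24 ± 0.08 on the log2 scale (adjusted p = 1.6e-12, edgeR). ECs and epithelial cells overlapped for *Klf9*, and stromal cells stood above both in every mouse. *Klf7* was higher by 0.65 ± 0.10 and *Klf13* by 0.22 ± 0.07, and the *Klf13* call was lost without mouse 3 (adjusted p = 0.085). *Klf2* was lower by -1.08 ± 0.14, *Klf3* by -0.61 ± 0.07, *Klf5* by -0.73 ± 0.26 and *Klf4* by -0.49 ± 0.15. By mean level, stromal cells were next below ECs for *Klf4* and next below epithelial cells for *Klf5*, each with overlap with immune cells. The *Klf4* and *Klf5* calls were each lost without mouse 2 or without mouse 4, with adjusted p between 0.095 and 0.26, and the *Klf4* call also after log-normalized clustering (adjusted p = 0.14). Without TMM 5 genes were higher and 4 lower.

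In immune cells 7 of the 9 genes were called, 3 higher and 4 lower, beside 76.0% of all genes (37.6% higher). *Klf2* was higher by 2.73 ± 0.12 on the log2 scale, *Klf6* by 0.85 ± 0.10 and *Klf3* by 0.45 ± 0.06. *Klf6* was at 173, 223 and 258 CPM in immune cells, 167 ± 19.2 in stromal cells, 136 ± 16.2 in ECs and 87.2 ± 5.95 in epithelial cells. Immune cells overlapped with stromal cells and stromal cells with ECs, although within each of the 3 mice immune cells were above stromal cells and these above ECs. *Klf9* was lower by -4.45 ± 0.12, the largest change of the 9 genes in this class (adjusted p = 1.0e-13, edgeR). *Klf5* (-0.96 ± 0.28), *Klf7* (-0.96 ± 0.11) and *Klf4* (-0.49 ± 0.16) were lower too. With the stricter cell filter (500 genes or more, mitochondrial share up to 10%), the *Klf4* and *Klf5* calls were lost (adjusted p = 0.27 and 0.28). That filter also changes the mix of immune cells. The B cell clusters, with 1784 of the 3025 immune cells, had median mitochondrial shares of 9.99% to 11.2%. The part of this mix in the lost calls was not tested. *Klf4* was also lost without mouse 2 and *Klf5* without mouse 4.

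**Figure D2:**
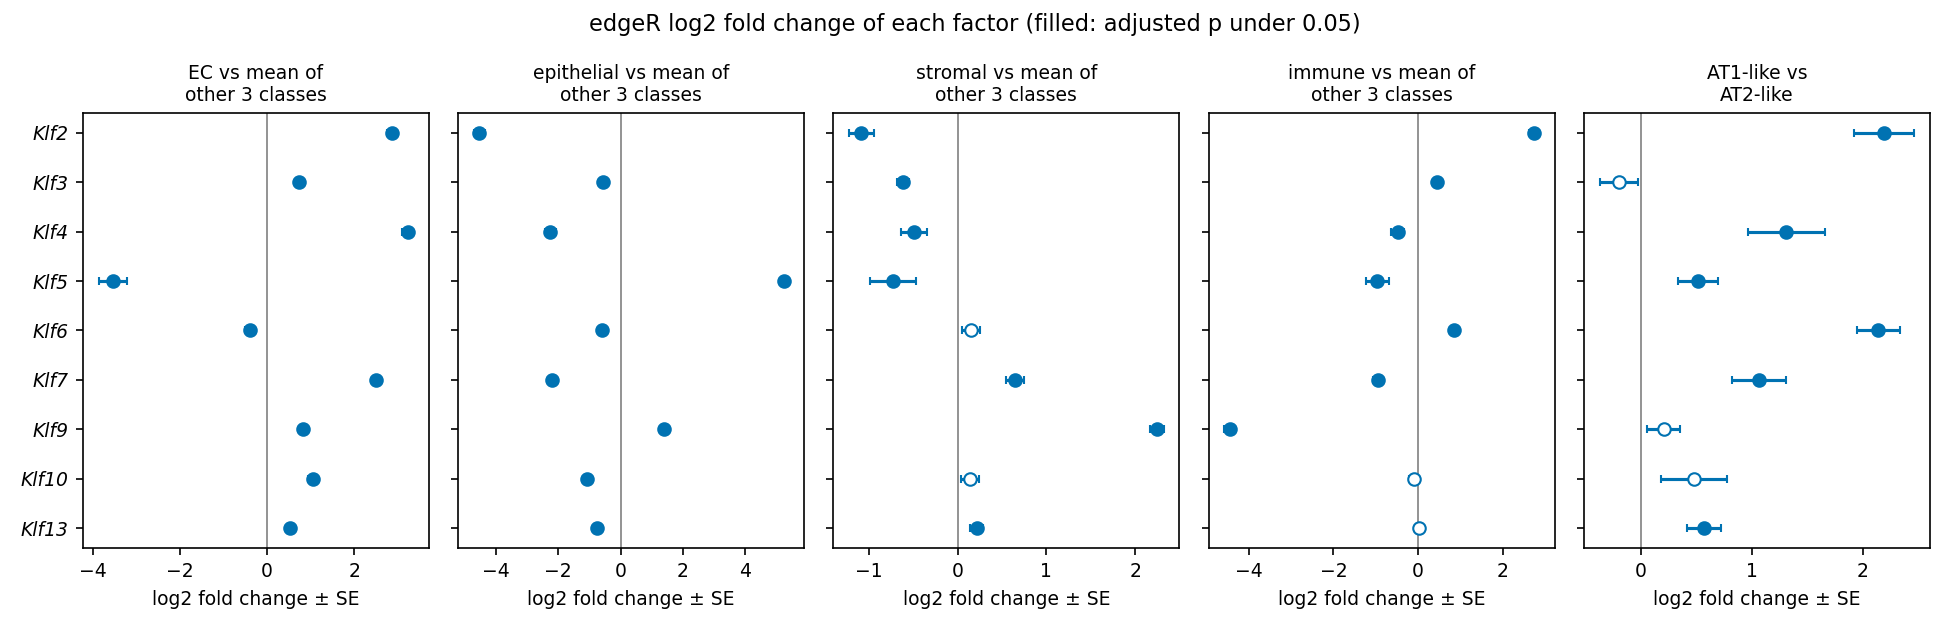
Log2 fold change of each KLF gene with its SE (edgeR) for each class against the mean of the other 3 and for AT1-like against AT2-like cells, with filled points at an adjusted p below 0.05. *Klf2* runs from -4.52 in epithelial cells to 2.87 in ECs and 2.73 in immune cells, and *Klf5* from -3.55 in ECs to 5.24 in epithelial cells.

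Shares of cells with at least 1 UMI depend on depth, so each cell was also thinned to 1000 UMIs. *Klf2* had a UMI in 83.8% ± 2.74 of ECs and in 12.1% ± 3.73 of epithelial cells, whose median depth was 16128.5 UMIs against 7576.5 in ECs. After thinning the shares were 48.5% ± 1.39 in ECs, 45.3% ± 2.40 in immune, 6.79% ± 0.182 in stromal and 1.36% ± 0.341 in epithelial cells. *Klf4* was in 30.6% ± 2.80 of thinned ECs and in 1.24% to 3.86% of the other classes. *Klf5* was in 6.38% ± 0.0690 of thinned epithelial cells and in 0.0469% ± 0.0198 of thinned ECs. The source of the few *Klf5* UMIs in ECs was not tested.

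Within the classes the levels spread further. The range over the 20 types with a sum from at least 2 mice was 147-fold for *Klf2*, 136-fold for *Klf4* and 124-fold for *Klf9*. The lowest type for *Klf2* was AT2-like cells at 7.42 CPM. For *Klf4* and *Klf9* it was NK-like cells, at 0, 3.83 and 7.86 and at 3.15, 3.83 and 0 CPM in mice 2, 3 and 4. Both of these folds rest on few UMIs and are rough. The range was 27.2-fold for *Klf7*, 13.9-fold for *Klf6*, 13.4-fold for *Klf10*, 9.79-fold for *Klf3* and 6.20-fold for *Klf13*. *Klf5* was below 10 CPM in 14 of the 20 types. Outside the epithelium its highest level was in basophil or mast cell-like cells, from 5 UMIs in each of 2 mice (42.9 and 82.7 CPM), where 2 of the 5 epithelial class markers were detected, with a sum of 739 to 777 CPM, and their part in this level was not tested. Each type was tested against the mean of all the others, and 132 of the 180 gene and type pairs were called, beside 34.3% of all such pairs of genes and types (13395 genes tested).

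**Figure D3:**
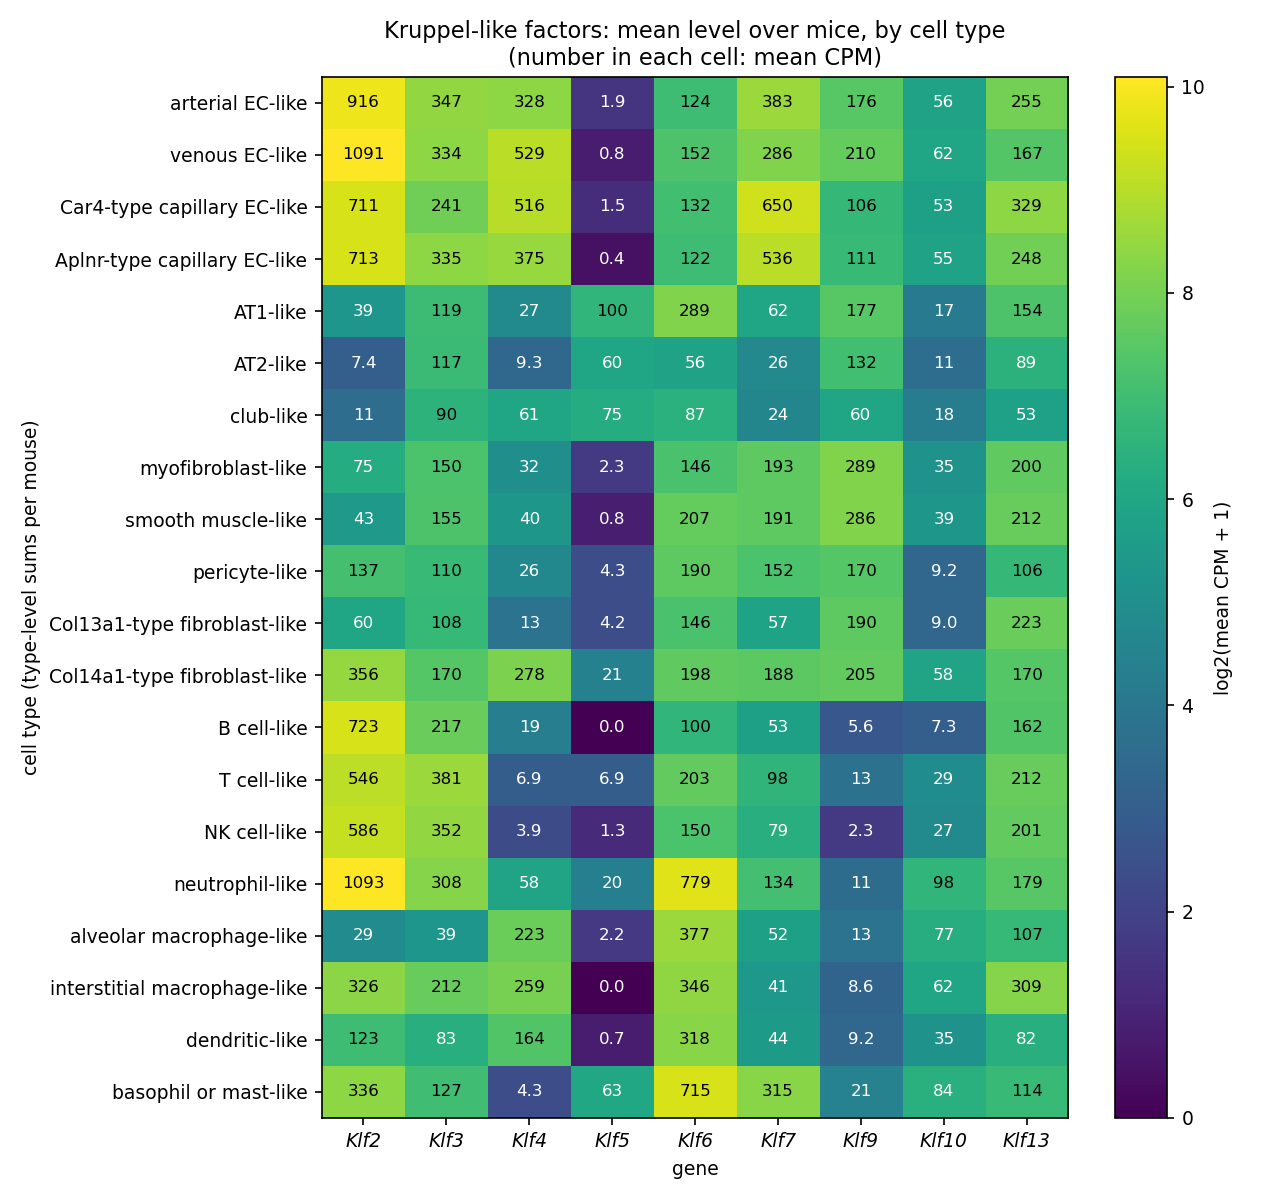
Mean level over mice of each KLF gene (columns) in 20 cell types (rows), as mean CPM in print and as log2(mean CPM + 1) in color. *Klf2* is above 500 CPM in the 4 EC types, B, T and NK cells and neutrophils, and *Klf5* is above 50 CPM in AT1, club and AT2 cells and in basophil or mast cells.

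*Klf2* was highest in neutrophil-like cells (957, 1235 and 1086 CPM in mice 2, 3 and 4) and venous EC-like cells (1083, 1088 and 1103), which overlapped. Arterial EC-like cells followed at 872, 997 and 879 CPM, below the venous cells in every mouse. B cell-like cells (651, 774 and 743), Aplnr-type capillary ECs (717, 761 and 663) and Car4-type capillary ECs (784, 744 and 603) overlapped. Aplnr-type cells carry the general capillary markers Aplnr and Gpihbp1, and Car4-type cells those of the large capillary cells that face the alveoli. NK-like (586 ± 12.8) and T cell-like cells (546 ± 46.5) came next, without overlap with the types above. *Klf2* was lowest in AT2-like cells, at 7.42, 5.83 and 9.01 CPM, and low in club-like cells (11.3 ± 4.2).

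*Klf4* was highest in venous ECs (415, 629 and 544 CPM) and Car4-type capillary ECs (581, 537 and 429). Aplnr-type cells (363, 396 and 366) and arterial ECs (342, 361 and 280) followed, each without overlap with the type above it. Outside the endothelium it was highest in Col14a1-type fibroblasts (220, 413 and 199), interstitial macrophage-like cells (256, 261 and 260) and alveolar macrophage-like cells (314, 128 and 229). Lymphocytes had little of it, with 18.9 ± 1.60 CPM in B cells, 6.87 ± 6.08 in T cells and 3.89 ± 3.93 in NK cells.

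*Klf7* was highest in Car4-type cells at 690, 699 and 562 CPM, then Aplnr-type cells at 547, 540 and 520 and arterial ECs at 375, 398 and 377, with no overlap between them. Venous ECs were lower still, at 263, 320 and 276. Myofibroblast-like (193 ± 10.3), smooth muscle-like (191 ± 13.9) and Col14a1-type cells (188 ± 30.8) had overlapping *Klf7* levels, and the lowest levels were in AT2 (26.0 ± 5.72) and club cells (23.9 ± 9.86).

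The EC types were each compared with Aplnr-type capillary ECs, the largest of them with 489 cells. In venous ECs 4 of the 9 genes were called, beside 13.5% of all genes. *Klf9* was higher by 0.96 ± 0.18 on the log2 scale (adjusted p = 4.5e-05, edgeR) and *Klf2* by 0.65 ± 0.19 (adjusted p = 0.013), while *Klf7* was lower by -0.87 ± 0.20 (adjusted p = 9.1e-04) and *Klf13* by -0.54 ± 0.17 (adjusted p = 0.019). *Klf4* was 0.53 ± 0.19 higher and missed the threshold (adjusted p = 0.055), which it passed with the mouse as a block (adjusted p = 0.014) and in 8 other alternatives. Without mouse 4 the *Klf2* (adjusted p = 0.059) and *Klf13* calls were lost, and without mouse 2 the *Klf13* call was lost. Of the 16 immediate-early and heat shock genes, a list that responds to dissociation of the tissue, 7 were higher in venous and 6 in arterial ECs than in Aplnr-type cells and none lower, with summed levels of 2238 to 4151, 2028 to 3263 and 1667 to 1960 CPM, and their part in the KLF differences was not tested.

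In arterial ECs only *Klf9* was called, beside 14.7% of all genes, and it was higher by 0.69 ± 0.18 (adjusted p = 0.0029, edgeR). It was at 179, 198 and 152 CPM in arterial, 193, 213 and 223 in venous and 98.5, 121 and 113 in Aplnr-type cells, and both vessel types stood above the capillary cells in every mouse. The call was lost without mouse 2 (adjusted p = 0.099). With the mouse as a block *Klf7* was called as well, lower by -0.47 ± 0.14 (adjusted p = 0.013). The *Klf2* difference between arterial and Aplnr-type cells, 0.38 ± 0.19, was not called (adjusted p = 0.21).

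In Car4-type cells only *Klf3* was called, beside 9.41% of all genes, at 279, 246 and 198 CPM against 334, 319 and 351 in Aplnr-type cells (-0.51 ± 0.17, adjusted p = 0.040, edgeR). Of 178 Car4-type cells, 82 came from a cluster with a median of 915 UMIs. The call was lost in 8 alternatives, among them without mouse 3 (adjusted p = 0.074) and without mouse 4 (adjusted p = 0.55). With the mouse as a block *Klf13* was called too, higher by 0.37 ± 0.12 (adjusted p = 0.028), and *Klf4*, not called here (0.43, adjusted p = 0.16), was called as higher in 5 alternatives. The 5 stromal class markers summed to 603 to 1797 CPM in Car4-type and 35.9 to 63.9 CPM in Aplnr-type cells, and their part in these differences was not tested.

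Within the Aplnr-type cells a cluster led by *Scn7a*, *Sema3c* and *Kit* held *Klf2* at 863, 940 and 758 CPM and *Klf4* at 482, 519 and 448. The cluster led by *Pcdh17*, *Gpihbp1* and *Plvap* held *Klf2* at 495, 638 and 479 and *Klf4* at 203, 311 and 222. Neither gene overlapped between these clusters. *Klf3* (337 to 395 against 274 to 311 CPM) and *Klf7* (545 to 647 against 481 to 530) did not overlap either. The share of all genes without overlap was not counted, and since clusters are cut from expression the difference between these 2 clusters was not tested. Another, shallow cluster of 32, 10 and 16 cells spanned both, with *Klf2* at 962, 469 and 729 CPM and *Klf4* at 369, 209 and 156. The summed level of the immediate-early and heat shock list was 1707, 1987 and 1826 CPM in the first and 1593, 1982 and 1760 in the second of the larger clusters.

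**Figure D4:**
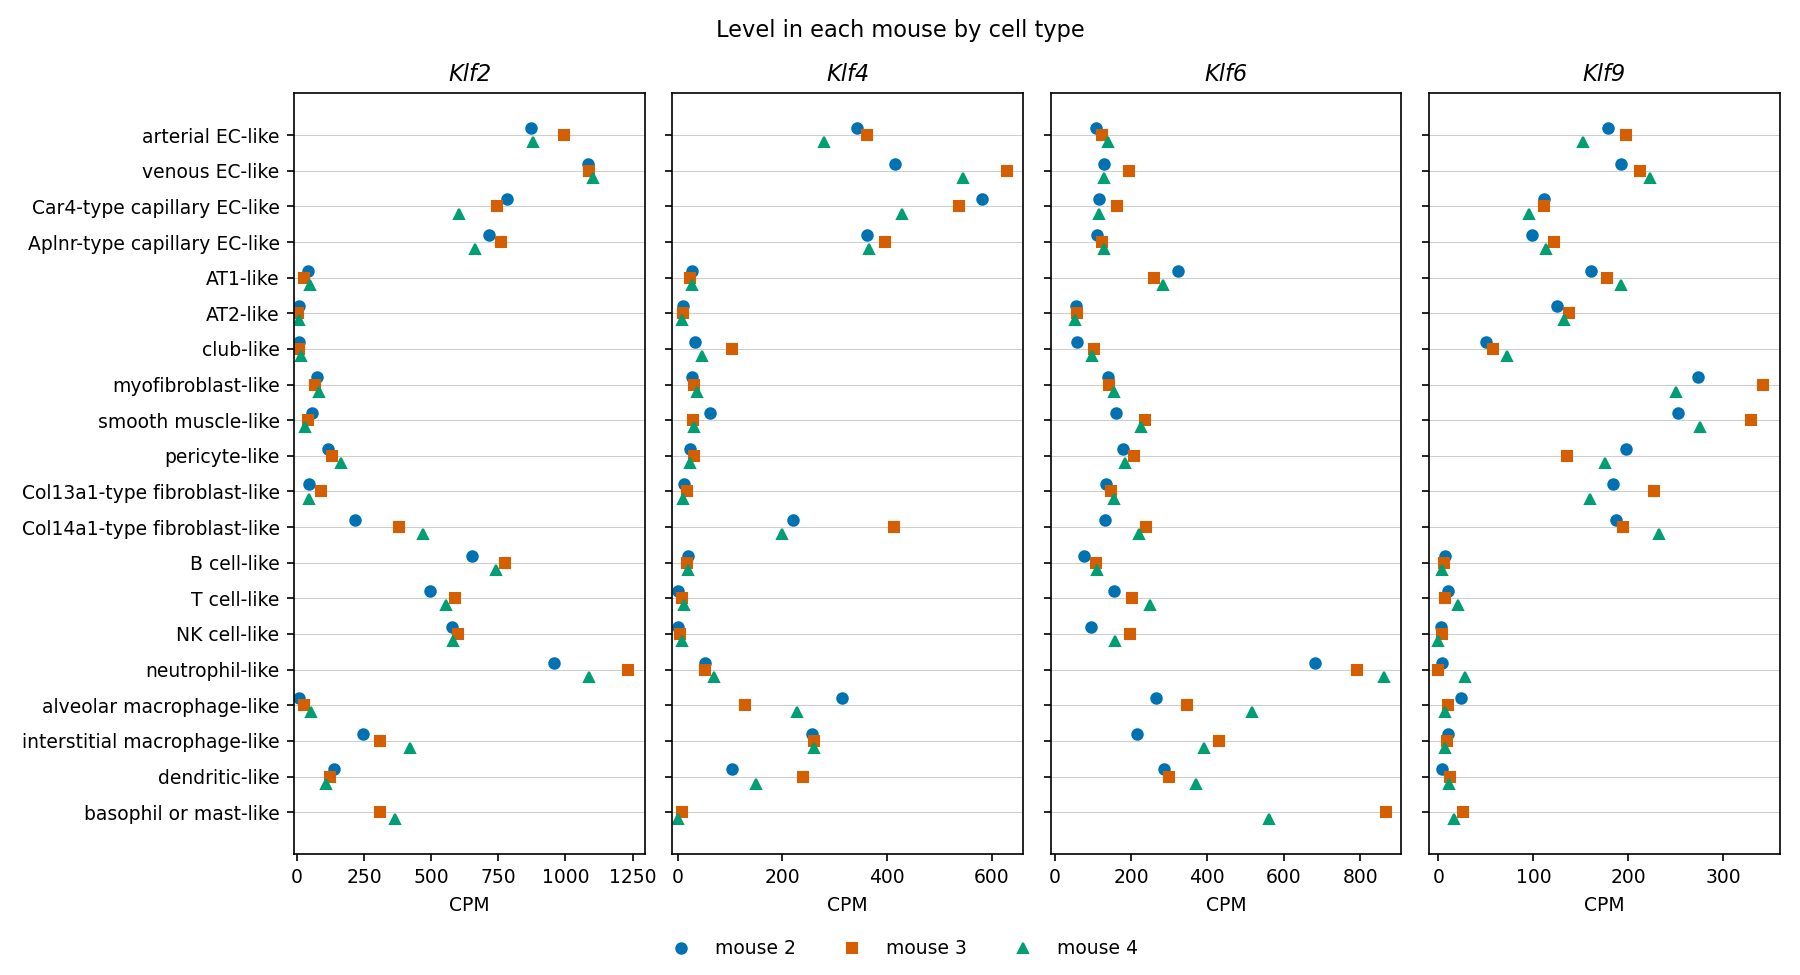
Level of *Klf2*, *Klf4*, *Klf6* and *Klf9* (CPM, linear axis) in each mouse, 1 symbol per mouse, for 20 cell types (rows, sums of at least 10 cells). *Klf2* and *Klf4* are high in the 4 EC types and differ among lymphocytes, where *Klf2* is above 490 CPM and *Klf4* below 21, and *Klf6* peaks in neutrophils and basophil or mast cells.

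AT1 cells, the flat cells of gas exchange, and AT2 cells, which make surfactant, both held *Klf5* and *Klf9*, and differed most in *Klf2* and *Klf6*. Of the 9 genes 6 were called, all higher in AT1 cells, beside 31.0% of all genes (16.2% higher). *Klf6* was at 323, 260 and 283 CPM in AT1 and at 55.04, 58.8 and 54.5 in AT2 cells, a difference of 2.14 ± 0.19 on the log2 scale (adjusted p = 9.1e-14, edgeR). *Klf2* was at 39.7, 26.0 and 50.05 CPM in AT1 and at 7.42, 5.83 and 9.01 in AT2 cells (2.19 ± 0.27, adjusted p = 1.9e-09). The mice did not overlap for either gene.

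*Klf4* (1.31 ± 0.35), *Klf7* (1.06 ± 0.24) and *Klf13* (0.57 ± 0.15) were also higher in AT1 cells. *Klf5* was at 107, 92.0 and 100 CPM in AT1, 70.9, 85.3 and 68.4 in club and 62.2, 57.4 and 59.6 in AT2 cells. Its difference between AT1 and AT2, 0.52 ± 0.18 (adjusted p = 0.021), lost its call without any 1 of the mice, with doublets removed and with the stricter cell filter. Without mouse 4, *Klf4* (adjusted p = 0.12) and *Klf13* (adjusted p = 0.056) were lost too, which left 3 calls. Without TMM the median of all genes in this contrast moved by 0.16 and 7 genes were called higher.

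AT1 cells also carried UMIs of endothelial markers. The 6 EC class markers, *Pecam1*, *Cdh5*, *Cldn5*, *Egfl7*, *Tie1* and *Esam*, were all detected, with a sum of 217 ± 42.5 CPM (172 to 256) in AT1, 136 ± 39.1 (106 to 180) in AT2 and 9818 ± 215 in Aplnr-type cells. Per 100 CPM of these markers there were 17.8 CPM of *Klf2* in AT1, 5.46 in AT2 and 7.27 in Aplnr-type cells. This ratio depends on the EC type taken. Venous ECs held more *Klf2* (mean 1091 CPM) beside a lower marker sum (6252 ± 109 CPM) than Aplnr-type cells (713 and 9818 CPM). The source of the *Klf2* UMIs in AT1 cells was not tested. In an alternative chosen after the data were seen, cells with any UMI of the 6 markers were left out, which kept 17, 17 and 28 AT1 and 71, 55 and 117 AT2 cells of the 3 mice. The kept AT1 cells were shallower on average than AT1 cells as a whole, whose median was 13461.5 UMIs. In a shallow cell the lack of a marker UMI says little about endothelial RNA. In the kept cells *Klf2* alone was called, 3.19 on the log2 scale higher in AT1 cells (adjusted p = 3.3e-04, edgeR). This rested on 4, 3 and 4 UMIs in AT1 cells, or 84.0, 80.0 and 65.2 CPM. *Klf6* was 1.06 higher (adjusted p = 0.054), while *Klf7* (-0.05) and *Klf13* (-0.48) turned to the other sign, and neither was called. Which part the endothelial UMIs had in the 6 calls beyond this was not tested.

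Against Aplnr-type capillary ECs, the largest EC type, AT1 cells differed in all 9 genes, beside 48.6% of all genes. *Klf5* was higher, with 278 UMIs in 166 AT1 cells and 2 UMIs in 489 Aplnr-type cells, a 233-fold difference of pooled CPM (exact 95% interval from counting error alone, 63.9 to 1934). *Klf6* was higher by 1.55 ± 0.20 and *Klf9* by 1.00 ± 0.17 on the log2 scale (edgeR). With the cells that held endothelial UMIs left out, *Klf6* was 0.51 higher and not called (adjusted p = 0.35), and the other 8 genes were. *Klf2* was lower by -3.81 ± 0.24, *Klf4* by -3.47 ± 0.26 and *Klf7* by -2.76 ± 0.22. *Klf10*, *Klf3* and *Klf13* were lower by -1.23 ± 0.28, -1.18 ± 0.17 and -0.37 ± 0.15, and the *Klf13* call was lost without any 1 of the mice.

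Among stromal cells *Klf9* ranged from 170 ± 31.8 CPM in pericyte-like cells to 289 ± 48.0 in myofibroblasts, which build the alveolar septa. Not every stromal type stood above the other classes. By mean, venous ECs (210 ± 15.6) were above Col14a1-type and Col13a1-type fibroblasts. AT1 cells and arterial ECs were above pericytes, with overlap between neighbours in this order. Smooth muscle and myofibroblasts differed in 2 of the 9 genes, beside 26.3% of all genes. *Klf6* was higher in smooth muscle by 0.60 ± 0.19 (adjusted p = 0.010, edgeR), at 160, 236 and 227 against 139, 143 and 157 CPM. *Klf2* was lower by -0.69 ± 0.22 (adjusted p = 0.015), at 57.0, 42.6 and 30.5 against 76.0, 66.6 and 82.2 CPM. Both calls were lost without mouse 4, and the *Klf6* call also without mouse 3 and after log-normalized clustering. The summed immediate-early list was 3518 ± 420 CPM in smooth muscle and 1780 ± 187 in myofibroblasts, and its part in the *Klf6* difference was not tested.

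Pericytes differed from Col13a1-type fibroblasts, matrix fibroblasts marked by *Col13a1* and *Tcf21*, in 3 genes, beside 23.6% of all genes. *Klf7* (1.33 ± 0.29) and *Klf2* (1.02 ± 0.27) were higher on the log2 scale and *Klf13* was lower (-1.28 ± 0.21, adjusted p = 1.3e-06, edgeR). Without mouse 4 only *Klf13* was called.

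Col14a1-type fibroblasts had 6 genes called against Col13a1-type cells, all higher, beside 20.1% of all genes (11.3% higher). *Klf4* was at 220, 413 and 199 CPM against 11.4, 18.3 and 9.87, a difference of 4.41 ± 0.33 on the log2 scale (adjusted p = 2.5e-16, edgeR). *Klf2* was at 218, 382 and 468 against 45.6, 89.5 and 43.7 (2.57 ± 0.23). *Klf10* (2.64 ± 0.40), *Klf5* (2.22 ± 0.54), *Klf7* (1.78 ± 0.26) and *Klf3* (0.71 ± 0.20) were higher too, and *Klf3* missed the threshold without mouse 3 (adjusted p = 0.055). This cluster of 100 cells had the cartilage genes *Col2a1*, *Col11a1* and *Acan* among its leading genes. Of the 16 immediate-early and heat shock genes 14 were higher in it and none lower, with a summed level of 2905 to 8084 CPM against 731 to 1371, and their part in the KLF differences was not tested.

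Lymphocytes shared high *Klf2*. T cells differed from B cells in 6 of the 9 genes, beside 27.6% of all genes. *Klf3* was at 379, 403 and 361 CPM in T cells, its highest mean of any type, with overlap with NK cells (447, 365 and 244), and at 198, 223 and 231 in B cells (0.53 ± 0.17, adjusted p = 0.010, edgeR). *Klf10* (1.70 ± 0.41) and *Klf6* (0.75 ± 0.21) were higher in T cells too. *Klf2* was lower in T cells by -0.68 ± 0.19 (adjusted p = 0.0052) and *Klf4* by -1.53 ± 0.60 (adjusted p = 0.049). *Klf4* was not called with the mouse as a block (adjusted p = 0.063) or without any 1 of the mice, and neither *Klf2* nor *Klf4* was called without TMM. *Klf2* was also lost without mouse 4 (adjusted p = 0.087) and *Klf3* without mouse 3 (adjusted p = 0.063). Without TMM the median of all genes moved by 0.15 in this contrast and with DESeq2 by 0.20, and the share of calls that were higher moved from 43.1% to 65.2% and 62.3%.

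*Klf5* had no UMI in 1784 B cells, which allows up to 0.168% of these cells with a UMI (3 counts over the group), and 9 UMIs in 204 T cells. Set against that floor, its pooled CPM was 17.9-fold higher in T cells. The T cell count is taken as exact here, so this is not a lower bound. T cells of mice 2, 3 and 4 held *Klf5* at 9.72, 10.8 and 0 CPM. NK and T cells differed in none of the 9 genes by edgeR, beside 6.52% of all genes. At an unadjusted p below 0.05 there were 2 genes, *Klf9* (-2.08 ± 0.88) and *Klf5* (-2.72 ± 1.25). DESeq2 also called none and had 2 at that unadjusted threshold. The share of all genes at the unadjusted threshold was not counted. NK cells of mice 2, 3 and 4 held *Klf9* at 3.15, 3.83 and 0 CPM and *Klf5* at 0, 0 and 3.93, so these differences rest on few UMIs. Among B cells, the cluster led by *Vpreb3* held *Klf2* at 731, 852 and 807 CPM and that led by *Fcer2a* at 590, 690 and 691, without overlap. *Klf13* did not overlap between them either (175 to 224 against 125 to 143 CPM). The share of all genes without overlap was not counted, and as clusters are cut from expression there was no test.

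Neutrophils differed from B cells in 8 of the 9 genes, all higher, beside 47.9% of all genes (21.1% higher). *Klf6* was at 682, 793 and 861 CPM against 77.4, 110 and 112, a difference of 3.53 ± 0.20 on the log2 scale (adjusted p = 4.3e-22, edgeR). *Klf10* was at 68.6, 103 and 124 against 10.5, 5.05 and 6.46 (4.45 ± 0.31). *Klf4* (2.22 ± 0.38), *Klf7* (1.94 ± 0.26), *Klf2* (1.18 ± 0.19), *Klf3* (1.11 ± 0.17) and *Klf13* (0.71 ± 0.17) were higher too, and *Klf9*, at 4.04, 0 and 28.1 CPM, was not called by edgeR (1.41 ± 0.61, adjusted p = 0.052) but was by DESeq2 (1.70, adjusted p = 0.0025) and in 5 other alternatives. *Klf5*, with 21 UMIs in 465 neutrophils and none in B cells, was 49.3-fold above the B cell floor of 3 counts in pooled CPM. The neutrophil count is taken as exact here, so this is not a lower bound.

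The scaling moved the median of all genes further here than in the other contrasts. The median of all genes was -0.27 in the neutrophil contrast, -0.84 without TMM and 0.06 with DESeq2, so without TMM *Klf2* was 0.60 higher and *Klf13* 0.13 higher and not called (adjusted p = 0.55). All 16 immediate-early and heat shock genes were higher in neutrophils, whose summed level of this list was 29926 ± 949 CPM against 1479 ± 64.1 in B cells, and its part in the KLF differences was not tested. Neutrophils had a median of 2121.0 UMIs a cell and B cells 3960.5.

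Interstitial macrophages differed from alveolar macrophages in 3 genes, all higher, beside 13.5% of all genes (7.08% higher). *Klf2* was at 246, 308 and 423 CPM against 7.85, 25.6 and 52.2 (3.23 ± 0.39, adjusted p = 7.1e-09, edgeR). *Klf3* was at 168, 215 and 254 against 23.5, 40.9 and 52.2 (2.17 ± 0.37), and *Klf13* at 384, 261 and 280 against 110, 92.1 and 118 (1.27 ± 0.26). None of the 3 overlapped. *Klf4*, known in the differentiation of myeloid cells, was at 259 ± 2.67 CPM in interstitial and 223 ± 93.1 in alveolar macrophages and was not called (0.02 ± 0.34). *Klf6* was 377 ± 127 CPM in alveolar and 346 ± 113 in interstitial macrophages and 318 ± 45.9 in dendritic cell-like cells. Basophil or mast cells, with sums from 2 mice only, held it at 867 and 562 CPM.

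The genes that act with KLFs were read from lists chosen beside them. Of 11 genes of the flow pathway upstream of KLF2 and KLF4, 8 were higher and 2 lower in ECs, beside 29.6% of all genes higher. The list is not sorted by whether a gene raises or lowers KLF2 and KLF4, so the count gives no direction for the pathway. Their median was 0.38 on the log2 scale, against -0.07 over all genes. The largest changes were in *Heg1* (4.04), the receptor that holds the CCM complex at the membrane, *Piezo1* (1.92), a mechanosensitive channel, *Mef2c* (1.67) and *Map3k3* (1.04), the kinase above MEK5. *Ccm2* (-0.75) and *Mef2d* (-0.40) were lower. In AT1 against AT2 cells 3 of the 11 were higher, *Piezo1* (1.12), *Heg1* (0.94) and *Pdcd10* (0.88), and none lower, beside 16.2% of all genes higher.

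Of 7 endothelial KLF targets tested, 5 were higher in ECs and none lower (median 4.36), beside 29.6% of all genes higher. They were led by *Nos3* (7.36), *Edn1* (7.35), *Thbd* (5.45) and *S1pr1* (4.36). *Nos3* and *Thbd* are genes that KLF2 activates, while *Edn1* and *Vcam1* (2.98) are genes that it represses. Of the 6 lymphocyte targets of KLF2, all 6 were higher in immune cells (median 6.92 against -0.05 over all genes), beside 37.6% of all genes higher. Among them were *Ccr7* (7.24), *Cxcr3* (7.01) and *Itgb7* (6.83), which guide lymphocytes to lymph nodes and tissue. In AT1 against AT2 cells none of the 7 or of the 6 was called, beside 31.0% of all genes. Both lists were low there. The full endothelial list of 8 genes summed to 82.8 CPM in AT1 and 43.5 in AT2 cells, against 1896 in Aplnr-type cells. The lymphocyte list summed to 2.34 CPM in AT1 and 6.47 in AT2 cells. At such low levels the lack of calls says little about these genes.

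Of 16 other KLF and SP genes, 10 were tested in the class fit. In ECs 3 were higher and 3 lower, with *Klf15* (-2.96), *Sp6* (-1.58), *Klf11* (1.18) and *Sp3* (-0.35) among them, beside 59.6% of all genes called. In epithelial cells 2 were higher, *Sp5* (5.85) and *Klf15* (4.18), and 3 lower, beside 71.0% of all genes called. Of 7 corepressors and E3 ligases that act on KLFs, 3 were higher and 1 lower in ECs, again beside 59.6% of all genes, with *Ctbp2*, a corepressor bound by KLF3, at 1.26. *Wwp1*, a ligase that targets KLF5 and KLF2, was higher in epithelial cells (2.07) and in AT1 against AT2 cells (1.58).

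The immediate-early and heat shock list went with some KLFs across types and not with others. Over the 20 types, the correlation of log2(mean CPM + 1) with its summed level was r = 0.76 for *Klf10* and 0.75 for *Klf6*, 0.38 for *Klf4*, 0.35 for *Klf2* and 0.25 for *Klf7*. For *Klf3*, *Klf5*, *Klf9* and *Klf13* it lay between -0.18 and 0.09. The types share libraries and differ in depth, so these values are a description. In ECs 3 of the 16 genes were higher and 9 lower than in the other classes, and in immune cells 13 were higher and 1 lower. Over all genes 29.6% were higher in ECs and 37.6% in immune cells. In AT1 against AT2 cells *Ier3* (4.81) and *Dusp1* (1.42) were higher and *Ier2* was lower (-1.18).

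**Figure D5:**
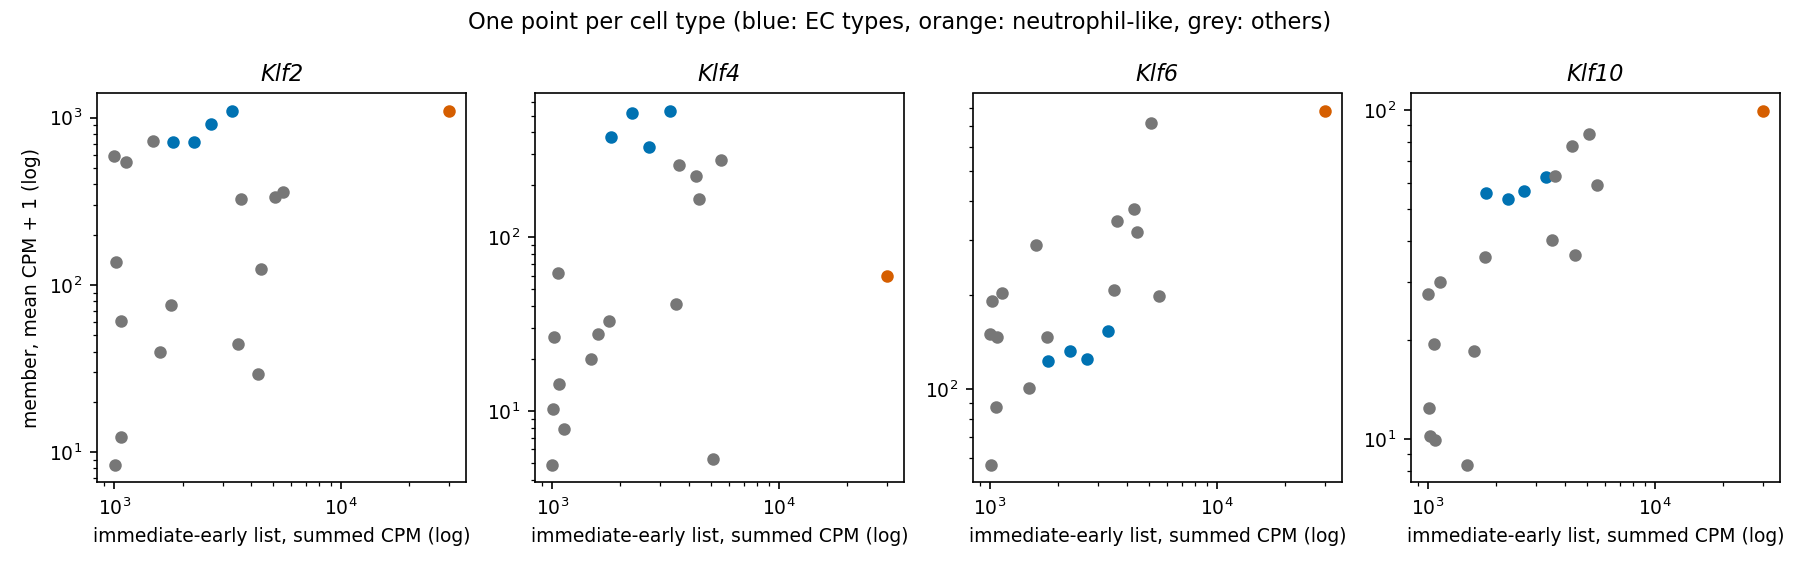
Mean level of *Klf2*, *Klf4*, *Klf6* and *Klf10* (CPM + 1, log axis) against the summed level of 16 immediate-early and heat shock genes (CPM, log axis), 1 point for each of 20 cell types, with EC types in blue and neutrophils in orange. Neutrophils lie far to the right at 29926 CPM, *Klf6* and *Klf10* rise with the list (r = 0.75 and 0.76 on log2 values), and the EC types are high in *Klf2* and *Klf4* at middle values of the list.

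The genes most like each KLF in pattern were taken from 8624 genes over the same 20 types. Those nearest to *Klf2* were *Map4k2* (r = 0.87), *Lgals9* (0.87) and *Pacs1* (0.86), and to *Klf4* *Kcnk6* (0.87), *Cpne8* (0.86) and *Rps6ka2* (0.85). *Klf9* had the closest neighbors, *Lzts2* (0.97), *Yap1* (0.97) and *Rbfox2* (0.96). *Klf5* was followed by *Prss8* (0.84), *Mal2* (0.83) and *Slc39a4* (0.82), *Klf7* by *Numb* (0.88), *Sppl3* (0.88) and *Map4k4* (0.86), and *Klf6* by *Atg7* (0.89), *Lamtor4* (0.86) and *Tarm1* (0.85). *Klf10* was nearest to *Ier2* (0.88), *Ppp1r15a* (0.79) and *Synj1* (0.77), *Klf3* to *Msl2* (0.86), *Arih1* (0.85) and *Zfp292* (0.85), and *Klf13* to *Rcor1* (0.78), *Ifnar1* (0.76) and *Wdr26* (0.76). Among the 9 genes, *Klf2* and *Klf3* were most alike (r = 0.79), *Klf2* and *Klf4* were at 0.27, and *Klf5* and *Klf13* were most opposed (-0.53).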

How the data were processed

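The deposited values of the 3 libraries are raw counts of UMIs by gene and cell. Per the labels and the submitters' processing notes these were made with Cell Ranger 3.0.2 on mm10, and the annotation is not given in the sources used here. The normalization and cell type calls described in the study's methods come after these counts and were not used. Raw counts were not normalized before testing.

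The 9 members and all gene lists were chosen with earlier results of these data known. A cell needed 200 or more genes and a mitochondrial share of up to 20%. The 3 libraries were joined and clustered in R 4.3.3 with Seurat 5.3.0, after SCTransform (version 0.4.2), on 3000 variable genes without the members (*Klf2*, *Klf4*, *Klf6* and *Klf7* would have been among them), with 30 principal components at a resolution of 0.8. ECs were clustered again with 20. Clusters were named from marker lists, with thresholds set after the clusters were seen, and a rebuilt name can differ from the study's. Doublets were scored with scanpy 1.11.5 (Python 3.11.15). The automatic threshold marked 0.03% to 0.43% of cells, so 250 cells with the top scores (0.8% for every 1000 cells of a library) were marked instead, and kept in the main analysis.

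UMIs were summed per mouse and class or type, with at least 10 cells a sum (12 and 60 sums), and tested with edgeR 4.0.16 (quasi-likelihood, TMM, filterByExpr, adjustment over all genes tested). The fit was checked on simulated counts in which 200 genes differed by a log2 fold of 2, and edgeR recovered 99.5% in the EC contrast (13669 genes) and 99.0% in the AT1 contrast (11754 genes), with 0.0965% and 0.0779% false calls. In these counts all groups shared the same profile apart from the changed genes. The spread was the same for every gene, the sums were independent, and changed genes had an expected count above a floor. These rates therefore do not extend to smaller folds, to genes with few UMIs or to sums paired by mouse. Types of 1 mouse come from 1 animal, so mouse numbers pair them. Over 18 pairs of sums of 1 mouse, the correlation of deviations ran from -0.04 to 0.32 (median 0.16, 2921 genes), against a median of -0.10 in 36 other pairs. Alternatives were DESeq2 1.42.0, no TMM, no filter, the mouse as a block, each mouse left out, other clusterings, doublets removed, a stricter cell filter, classes from each cell's own UMIs, per-cell means and, added after the data were seen, alveolar cells without endothelial UMIs. Named genes are the members, for each the 3 genes most like it over 20 types among those with at least 50 CPM in 1 type, and up to 4 called genes with the largest change in a list. Other genes named are cluster leaders, class markers and list genes picked after their values were seen (*Ccm2*, *Mef2d*, *Vcam1*, *Ctbp2*, *Wwp1*). A listed gene that this rule names is not reported here. Intervals and floors cover counting error only, and a floor covers only that of the group without a UMI.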

Additional observations from a re-analysis of the deposited data

How the results depend on the processing

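Of 1323 values under alternative settings, for 107 results, 1020 for single genes were unchanged. This meant the same side of the threshold and the same direction, or for 6 levels from per-cell means a shift within the SD. Another 216 were unchanged too, as counts of calls within 1.5 times or as the *Klf2* difference of AT1 against AT2, which kept its call and direction. A further 61 single-gene calls fell short of the threshold in the same direction. Single-gene tests entered these numbers only where the gene was called in the main analysis, so gained calls are not among them. *Klf7*, for example, was called as higher in T than in B cells in 6 alternatives. Levels from per-cell means moved beyond the SD for *Klf3* in T cells (472 CPM), *Klf5* in AT1 cells (132) and *Klf6* in neutrophils (878). Counts of called members moved beyond 1.5-fold in 7 contrasts. For arterial against Aplnr-type ECs (1 call) there were 2 with no filter, 2 with the mouse as a replicate block and 0 to 1 without 1 mouse. For Car4-type against Aplnr-type ECs (1 call) there were 2 with DESeq2, with no filter, with the replicate block, with doublets removed, with the stricter cell filter and at a resolution of 1.2, and 0 without TMM, after log-normalization and, at the lowest, without 1 mouse (0 to 1). Without 1 mouse, venous against Aplnr-type ECs gave 2 to 4 calls (4), AT1 against AT2 gave 3 to 5 (6), smooth muscle against myofibroblasts 0 to 2 (2, and 1 after log-normalization), pericytes against Col13a1-type fibroblasts 1 to 3 (3), and NK against T cells 0 to 1 (0, with *Klf5* called without mouse 4, and 1, *Klf3*, after log-normalization). Leaving out alveolar cells with endothelial UMIs gave 1 call for AT1 against AT2, with *Klf7* at -0.045 and *Klf13* at -0.48, reversed, from 62 AT1 cells, and the *Klf6* call of AT1 against Aplnr-type ECs was lost. The replicate block changed no other call than those given for arterial and Car4-type ECs, *Klf4* in venous ECs (called with the block) and *Klf4* in T cells against B cells (adjusted p = 0.0628, edgeR quasi-likelihood). With the members left among the variable genes, the *Klf3* call in Car4-type ECs was lost (adjusted p = 0.264), and *Klf4* was called as higher there (0.72) and in venous ECs (0.61). Pairs of gene and type called were 132 and 109 to 127 without 1 mouse. Shares of calls in the higher direction moved with scaling also in AT1 against AT2 (52.1% to 71.4% without TMM), AT1 against Aplnr-type ECs (52.7% to 37.2%), smooth muscle (54.4% to 43.9%), neutrophils (44.0% to 28.4%, and 58.9% with DESeq2), interstitial macrophages (52.6% to 70.4%) and venous ECs (52.1% to 66.3% with DESeq2). No cluster was named as interstitial macrophages after log-normalization, so that contrast has no value there. The stricter cell filter and a clustering resolution of 0.4 also gave fewer contrasts and single-gene values than most settings. Not every contrast was therefore run in each alternative. The interstitial macrophage cluster had median mitochondrial shares of 11.5% to 13.7%, above the limit of the stricter filter. The cause of these changes was not tested. Types with few or shallow cells, such as the 67 club cells of mouse 4 at a median of 595 UMIs, limit what low genes can show.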

Other observations

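An unnamed cluster of 450 cells with 0.51% to 0.60% mitochondrial UMIs and 822.0 to 871.0 UMIs a cell in the median was led by *Hpgd*, *Sox7* and *Epas1*. It held *Klf2* at 1234, 1340 and 1192 CPM and *Klf4* at 620, 479 and 360 CPM in mice 2, 3 and 4, which for *Klf2* lies above the mean of each named EC type. An unnamed cluster led by platelet genes held *Klf6* at 5458 CPM in 10 cells of mouse 2 and at 95.4 CPM in 12 cells of mouse 3, with the immediate-early list at 31548 and 859 CPM. These cells entered no comparison based on cluster names. The alternative with the class taken from each cell's own UMIs used cells of any cluster, so they could enter there. These clusters were chosen after their values were seen.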
